A study of Mus musculus with 8 samples.

Results

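Gpr83, Foxp3, Ikzf2, Ikzf4, Nrp1 and Lrrc32 are 6 genes known from regulatory T cells, and all 6 of them were found among the 19938 genes read by the arrays. Each was read by the only probe set that carries its symbol alone, and no probe set with several symbols named any of them. The set was put together with earlier results of these arrays known: Gpr83 was selected on its log2 signal difference between Tet2-deficient and wild-type Th17 cells, and the other 5 were added as genes known from regulatory T cells. Values of that contrast for Gpr83 are therefore given as a description, without a test.

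The series holds 8 arrays in 4 groups of 2, called biological replicates in their titles. Tet2-deficient Th17 cells, wild-type Th17 cells, Tet2-deficient Th1 cells and wild-type Th1 cells make up the groups, where Tet2-deficient stands for the genotype CD2(Cre)Tet2(f/f) and wild-type for Tet2(f/f). The floxed Tet2 allele is thus shared by all 4 groups, and only the Cre separates the genotypes. The study asks how Tet2, which oxidizes methylated cytosine, acts in T helper subsets. CD2 is a gene of lymphocytes, and which cells carried the Cre, how complete the deletion was, the age of the mice and the number behind an array are not given in the sources used here.

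Regulatory T cells are CD4 T cells that restrain immune responses, and their identity rests on the transcription factor Foxp3. Ikzf2 (Helios) and Ikzf4 (Eos) are zinc finger factors of the Ikaros family, and Eos is known as a corepressor partner of Foxp3. Nrp1 (neuropilin 1) is a surface coreceptor for semaphorins and vascular endothelial growth factor, Lrrc32 (GARP) holds latent TGF-beta at the cell surface, and Gpr83 is a G protein-coupled receptor known from regulatory T cell transcripts and from brain. TGF-beta signalling is a known input to both regulatory T cell and Th17 differentiation in mouse, while Th1 cells are raised without it as a rule.

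Because Tet2 acts on cytosine in CpG dinucleotides, the promoter sequences of the 2 genes that bear most on the comparison, Gpr83 and Foxp3, are shown with every CpG in capitals. Each runs 5′ to 3′ from 250 bases before to 50 bases after an annotated start (RefSeq, GRCm38.p6, plus strand). The Gpr83 window is chr9:14859960-14860259, and the Foxp3 window is the first of its 2 annotated windows, chrX:7579426-7579725.
Gpr83: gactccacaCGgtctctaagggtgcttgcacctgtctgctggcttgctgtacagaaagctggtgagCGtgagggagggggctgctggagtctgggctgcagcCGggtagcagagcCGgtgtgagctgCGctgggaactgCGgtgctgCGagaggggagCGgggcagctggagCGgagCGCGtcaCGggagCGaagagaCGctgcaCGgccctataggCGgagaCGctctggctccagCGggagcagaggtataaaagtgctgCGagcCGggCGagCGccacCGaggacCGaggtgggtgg
Foxp3: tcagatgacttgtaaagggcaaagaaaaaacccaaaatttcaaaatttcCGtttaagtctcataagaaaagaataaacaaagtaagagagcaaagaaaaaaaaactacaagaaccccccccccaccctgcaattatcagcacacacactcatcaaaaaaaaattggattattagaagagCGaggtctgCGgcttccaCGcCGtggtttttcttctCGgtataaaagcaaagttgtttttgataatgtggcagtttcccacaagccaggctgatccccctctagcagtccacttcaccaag

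The Gpr83 window held 24 CpGs in 300 bases with a G and C content of 67.0%, and 20.0% of the 32851 windows in the promoter table held as many or more. The first Foxp3 window held 6 CpGs (40.7% G and C; 56.4% of windows held as many), and the second, chrX:7580233-7580532, held 8 (47.7% G and C; 48.6% of windows). Nrp1 had 14 CpGs in its window, chr8:128358823-128359122 (64.0% G and C; 36.3% of windows). The median window held 7. The letters TATAAAA, searched on both strands, were found in the Gpr83 window and in the first Foxp3 window and not in the other 2, beside 5.48% of all windows. Windows were matched for 3 of the 6 genes. Methylation was not measured on these arrays, so the sequences describe the promoters and carry no readout.

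Gpr83 (gene ID 14608, chromosome 9, 14859880 to 14870789 in GRCm38.p6, probe set 10583286) was the member with the widest spread of signal over the 8 arrays. The 2 Tet2-deficient Th17 arrays gave a log2 signal of 7.96 and 7.92, the 2 wild-type Th17 arrays 8.88 and 8.94. Among Th1 arrays it was 7.34 and 7.01 with Tet2 deficiency, against 7.44 and 7.37 in wild-type cells. The wild-type Th17 arrays were the highest of all 8, the Tet2-deficient Th17 arrays came next, and all 4 Th1 arrays lay below them without overlap. These are log2 signals of bulk RNA, in which fewer cells of a type and less RNA per cell cannot be told apart.

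Group means of Gpr83 were 7.94 ± 0.03 in Tet2-deficient and 8.91 ± 0.04 in wild-type Th17 cells (SD, n = 2 arrays each). In Th1 cells they were 7.17 ± 0.23 with Tet2 deficiency and 7.40 ± 0.05 in wild-type cells (SD, n = 2 each). In order of level, wild-type Th17 stood first, then Tet2-deficient Th17, wild-type Th1 and Tet2-deficient Th1, and only the last pair lay close to its replicate spread. Over the 8 arrays the Gpr83 signal ranged over 1.92 log2 units, and 0.577% of genes had a wider range. The replicate arrays lay 0.042 apart in Tet2-deficient and 0.053 apart in wild-type Th17 cells, under the median gaps of all genes there (0.110 and 0.122). Range and gaps rest on the Th17 arrays on which Gpr83 was selected, so its place among all genes is a description only.

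**Figure D1:**
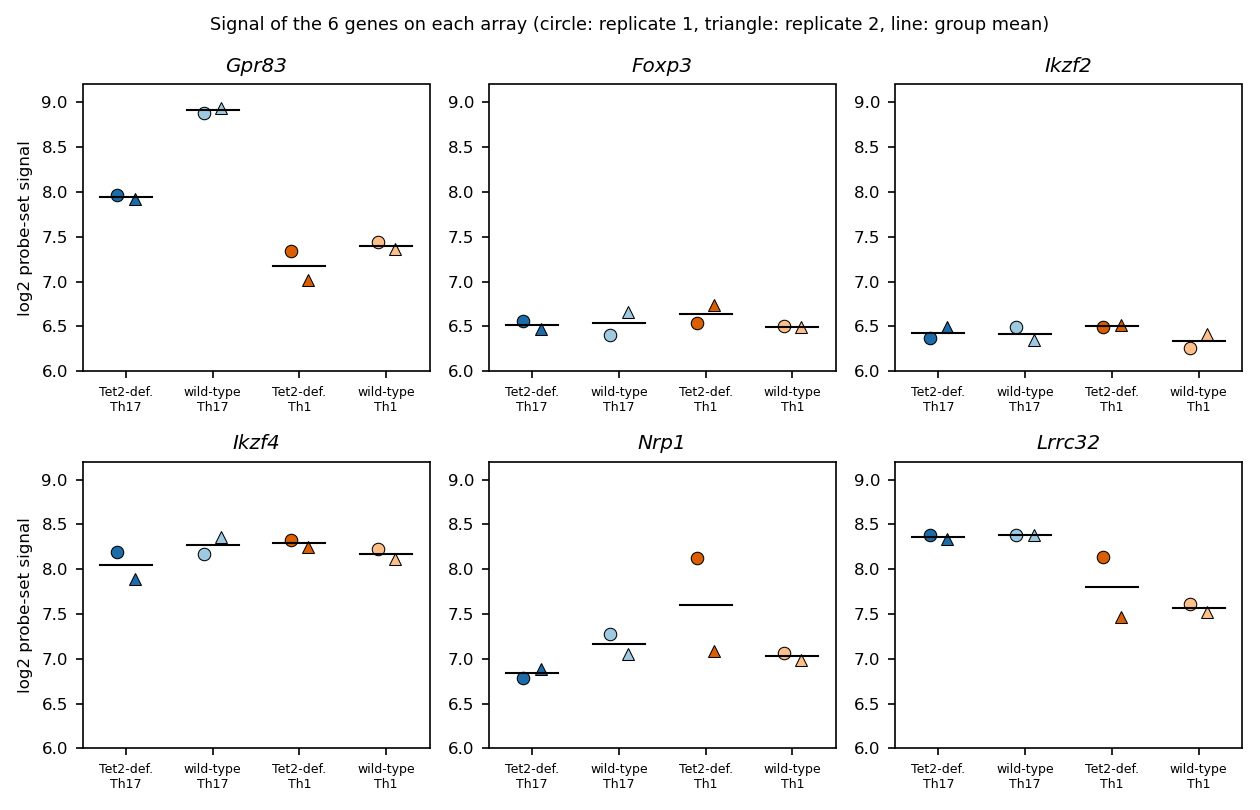
The log2 probe-set signal (vertical axis) of each gene is plotted for each array in the 4 groups (horizontal axis), with circles for replicate 1, triangles for replicate 2 and lines for group means of 2 arrays. Gpr83 stepped across the 4 groups between 7.01 and 8.94, Lrrc32 was near 8.4 on all 4 Th17 arrays, and a single Tet2-deficient Th1 array stood apart for Nrp1 (8.12) and Lrrc32 (8.14).

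Between Th17 and Th1 cells, Gpr83 was called higher in both genotypes (limma, Benjamini-Hochberg adjusted p under 0.05 over all 19938 genes). In Tet2-deficient cells the log2 fold change was 0.77 ± 0.13 (SE; 95% interval 0.49 to 1.04, 1.70-fold, adjusted p = 0.00229). In wild-type cells it was 1.51 ± 0.13 (SE; 95% interval 1.23 to 1.78, 2.85-fold, adjusted p = 1.6e-05). The subset difference in Tet2-deficient cells was 50.9% of that in wild-type cells on the log2 scale. The call held under all 19 alternatives in each genotype, with adjusted p from 0.0011 to 0.0369 in Tet2-deficient and from 5.78e-06 to 0.00452 in wild-type cells. The tests and the 50.9% use the same Th17 arrays as the contrast for which Gpr83 was picked, so they are not independent of that choice. The 50.9% contains that contrast and is a description only.

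Between genotypes in Th17 cells, Gpr83 had a log2 fold change of -0.97 ± 0.13 (SE; 95% interval -1.24 to -0.69), or 1.96-fold lower with Tet2 deficiency. In Th1 cells the log2 fold change was -0.23 ± 0.13 (95% interval -0.50 to 0.05, adjusted p = 0.834, limma), and both Tet2-deficient arrays lay below both wild-type arrays. Without Tet2-deficient Th1 replicate 2 it was -0.06, and without replicate 1 it was -0.39. The Th17 effect minus the Th1 effect was -0.74 ± 0.18 (SE), and the mean of both effects was -0.60 ± 0.09, both given as descriptions since they contain the Th17 contrast.

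**Figure D2:**
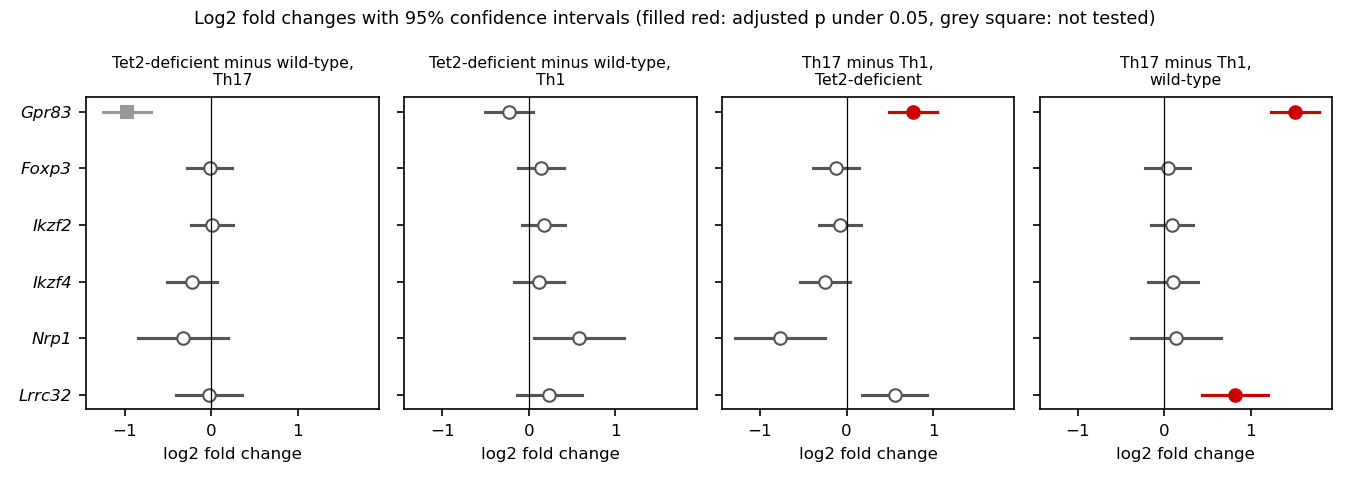
Log2 fold changes (horizontal axis) of the 6 genes with 95% confidence intervals are shown for 4 comparisons, in red with filled points where the adjusted p was under 0.05. The grey square is Gpr83 in the comparison it was selected on (-0.97), shown without a test, and red points are Gpr83 in both subset comparisons and Lrrc32 in the wild-type subset comparison.

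Foxp3 (gene ID 20371, chromosome X, 7579676 to 7595243, probe set 10598292) showed little spread between groups. Its log2 signal was 6.55 and 6.47 on the Tet2-deficient Th17 arrays, against 6.40 and 6.66 on the wild-type Th17 arrays. In Th1 cells it was 6.54 and 6.73 with Tet2 deficiency, against 6.50 and 6.49 in wild-type cells. All 8 values lay within 0.33 log2 units, a narrower range than that of 73.9% of genes, and the Th17 groups overlapped. The lowest and highest arrays, wild-type Th17 replicate 1 and Tet2-deficient Th1 replicate 2, differed by little more than the 2 wild-type Th17 arrays did from each other (0.26).

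The log2 fold change of Foxp3 between genotypes was -0.02 (95% interval -0.28 to 0.25) in Th17 cells and 0.14 (-0.12 to 0.41) in Th1 cells. Between Th17 and Th1 cells it was -0.12 (-0.39 to 0.14) in Tet2-deficient and 0.04 (-0.23 to 0.30) in wild-type cells. None passed (limma, adjusted p from 0.586 to 0.99996). The mean Foxp3 signal over the 8 arrays (6.54) lay just below that of the median gene (6.56). The deposited table has no detection calls, so whether Foxp3 RNA was above background on these arrays was not tested.

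Foxp3 is X-linked, and Xist, which is transcribed from the silenced X of female cells, differed among the Th17 arrays. Its linear signal, with the mean of the Th1 arrays set to 0 and the highest array to 100%, gave a female share of 14.7% and 100% for Tet2-deficient Th17 cells, against 0.187% and 42.9% for wild-type Th17 cells. The Y-linked Eif2s3y had a log2 signal of 9.36 and 4.33 on the Tet2-deficient Th17 arrays, against 9.65 and 8.46 on the wild-type ones, and 8.82 or more on each Th1 array. When that share entered the fit as a covariate, the log2 fold change between genotypes in Th17 cells was -0.03 for Foxp3 and -0.96 for Gpr83. Female share was uneven between the Th17 genotypes, and on the Th1 arrays it lay between -0.13% and 0.105%. Comparisons of Th17 with Th1 cells therefore carry a difference in female share as well. The part of sex in these values was not tested further.

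The Ikaros family members Ikzf2 and Ikzf4 did not pass in any comparison. Ikzf2 (gene ID 22779, chromosome 1, 69531207 to 69687351, probe set 10355312) had a log2 signal of 6.37 and 6.49 on the Tet2-deficient Th17 arrays, against 6.49 and 6.35 on the wild-type ones. Its Th1 values were 6.49 and 6.51 with Tet2 deficiency, against 6.25 and 6.41 in wild-type cells. The Th17 groups overlapped and the Th1 groups did not, but the whole range over 8 arrays was 0.26 log2 units, and 87.9% of genes had a wider one. The mean Ikzf2 signal (6.42) lay below that of the median gene (6.56). Whether Ikzf2 RNA was above background was not tested, so its narrow range says little about change.

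Ikzf4 (gene ID 22781, chromosome 10, 128630839 to 128669671, probe set 10373502) had a log2 signal of 8.19 and 7.89 on the Tet2-deficient Th17 arrays, against 8.17 and 8.36 on the wild-type ones. Its Th1 values were 8.33 and 8.25 with Tet2 deficiency, against 8.23 and 8.11 in wild-type cells. Tet2-deficient Th17 replicate 2 was the lowest array, and its replicate overlapped the wild-type pair. Log2 fold changes between genotypes in Th17 cells were -0.22 (95% interval -0.51 to 0.07) for Ikzf4 and 0.01 (-0.23 to 0.26) for Ikzf2. In Th1 cells they were 0.12 (-0.17 to 0.41) for Ikzf4 and 0.17 (-0.07 to 0.41) for Ikzf2.

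A relative outside the set did separate the subsets. Ikzf3 (Aiolos), another Ikaros factor, was called higher in Th17 than in Th1 cells, by 1.39 log2 units (adjusted p = 9.1e-05, limma) in Tet2-deficient and 1.68 (adjusted p = 2.53e-05) in wild-type cells. Ikzf1 and Ikzf5 were not called in any comparison.

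Lrrc32 (gene ID 434215, chromosome 7, 98489305 to 98501831, probe set 10555174) was higher in Th17 cells and nearly equal between genotypes there. Its log2 signal was 8.38 and 8.34 on the Tet2-deficient Th17 arrays, against 8.38 and 8.39 on the wild-type Th17 arrays. In Th1 cells it was 8.14 and 7.47 with Tet2 deficiency, against 7.61 and 7.53 in wild-type cells. All Th17 arrays lay above all Th1 arrays, and Tet2-deficient Th1 replicate 1 lay nearer to the Th17 arrays than the other 3 Th1 arrays did. That group's gap of 0.67 was exceeded by 0.441% of genes.

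Between Th17 and Th1 cells, Lrrc32 was called higher in wild-type cells, with a log2 fold change of 0.82 ± 0.17 (SE; 95% interval 0.44 to 1.20, 1.76-fold, adjusted p = 0.0128, limma). In Tet2-deficient cells it was 0.56 ± 0.17 (95% interval 0.18 to 0.93, adjusted p = 0.0633), which did not pass. Without Tet2-deficient Th1 replicate 1 that value was 0.89 (adjusted p = 0.00435), and without replicate 2 it was 0.22 (adjusted p = 0.425). The wild-type call ended without wild-type Th17 replicate 1 (0.82, adjusted p = 0.0552), wild-type Th17 replicate 2 (0.82, 0.0784) or wild-type Th1 replicate 2 (0.78, 0.0564), and over all probe sets (adjusted p = 0.105). The difference between the genotypes' subset effects was -0.26 (95% interval -0.80 to 0.27) and did not pass (adjusted p = 0.999). Between genotypes in Th17 cells Lrrc32 had -0.02 (95% interval -0.40 to 0.35), and in Th1 cells 0.24 (-0.14 to 0.61), which was -0.10 without Tet2-deficient Th1 replicate 1.

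Nrp1 (gene ID 18186, chromosome 8, 128358591 to 128505476, probe set 10576639) rested on the same array. The Tet2-deficient Th17 arrays gave 6.79 and 6.89 on the log2 scale, the wild-type Th17 arrays 7.28 and 7.06. In the Th1 groups it was 8.12 and 7.08 with Tet2 deficiency, against 7.07 and 6.98 in wild-type cells. Tet2-deficient Th1 replicate 1 was the highest array, and the next was wild-type Th17 replicate 1. Its gap of 1.04 to replicate 2 was exceeded by 10 of the 19938 genes.

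The Nrp1 log2 fold change between genotypes was -0.33 (95% interval -0.85 to 0.19) in Th17 and 0.58 (0.06 to 1.10) in Th1 cells, and neither passed (adjusted p = 0.99996 and 0.809, limma). Without Tet2-deficient Th1 replicate 1 the Th1 value was 0.06, and without replicate 2 it was 1.10 (adjusted p = 0.141). Between Th17 and Th1 cells it was -0.77 (95% interval -1.29 to -0.25, adjusted p = 0.0630) in Tet2-deficient and 0.14 (-0.38 to 0.66, adjusted p = 0.767) in wild-type cells. Without Tet2-deficient Th1 replicate 1 the Tet2-deficient value was -0.25 (adjusted p = 0.424), and without replicate 2 it was -1.29 (adjusted p = 0.000655).

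**Figure D3:**
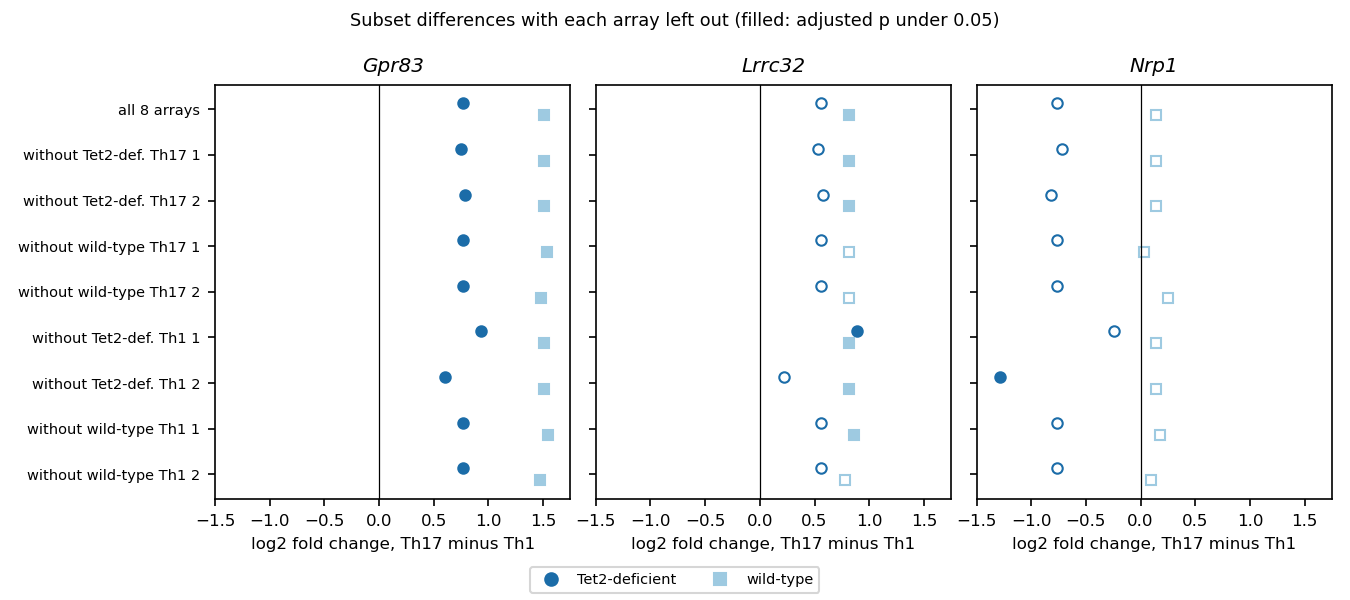
The log2 fold change of Th17 against Th1 cells (horizontal axis) is shown with all arrays and with each array left out (rows), as dark circles for Tet2-deficient and pale squares for wild-type cells, filled where the adjusted p was under 0.05. Gpr83 stayed called in every row, while the Tet2-deficient values of Lrrc32 (0.22 to 0.89) and Nrp1 (-1.29 to -0.25) moved with the Tet2-deficient Th1 arrays.

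Nrp1 is also known from dendritic cells, so markers of other cells were read on the Th1 arrays. The log2 of the summed linear signal of 10 myeloid and dendritic cell markers was 9.47 and 9.33 on the Tet2-deficient Th1 arrays, against 9.46 and 9.32 on the wild-type Th1 arrays, and 9 of the 10 had a mean below the median gene (6.56). The class II gene H2-Ab1 and its invariant chain Cd74, looked up after their values were seen, had 8.73 and 7.40 on Tet2-deficient Th1 replicate 1. On replicate 2 they had 7.82 and 6.63, and on the wild-type Th1 arrays 8.04 and 7.58 for H2-Ab1 and 7.14 and 6.94 for Cd74. Their part in the Nrp1 and Lrrc32 values was not tested.

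Between genotypes in Th17 cells, limma called 0 of the 5 genes other than Gpr83, where 0% of all genes were called, with 0 of these 5 and 824 of all genes at an unadjusted p under 0.05. In Th1 cells it called 0 of 6, where 0.00502% of all genes were called, with 1 of 6 (Nrp1) and 1206 of all genes at an unadjusted p under 0.05. Between subsets it called 1 of 6 in Tet2-deficient cells, where 10.1% of all genes were called (6.32% higher and 3.79% lower), and that gene was higher. In wild-type cells it called 2 of 6, both higher, where 8.4% of all genes were called (4.97% higher and 3.44% lower). Arrays of the groups compared did not overlap for 2 of 6 genes between genotypes in Th17 cells, Nrp1 and the selected Gpr83, both lower, beside 32.9% of all genes (14.1% lower). This held for 5 of 6 between genotypes in Th1 cells, beside 33.3% of all genes. Of these, 4 were higher with Tet2 deficiency, beside 19.6% of all genes, and Gpr83 was lower, beside 13.7%. Between subsets the count was 5 of 6 in Tet2-deficient cells (57.5% of all genes), 2 of them higher (25.8%) and 3 lower (31.7%), and 2 of 6 in wild-type cells (52.2%), both higher (23.8%). The median log2 fold change of the 6 was -0.124 in Th17 and 0.156 in Th1 cells between genotypes, beside 0.013 over all genes in both contrasts. The Th17 median includes Gpr83 (-0.97), which was selected on that contrast, so no shift of the set is read from it. The other 5 had -0.33 (Nrp1), -0.22 (Ikzf4), -0.02 (Lrrc32), -0.02 (Foxp3) and 0.01 (Ikzf2) there.

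The wider regulatory T cell signature, a list of 35 other genes of which 32 were measured, did not move one way between subsets. In Tet2-deficient cells 7 were called higher in Th17 than in Th1 cells and 14 lower, with a median log2 fold change of -0.236 beside -0.030 over all genes. In wild-type cells 8 were called higher and 10 lower, with a median of -0.225 beside -0.026 over all genes. Over all genes 6.32% were called higher and 3.79% lower in Tet2-deficient cells, and 4.97% and 3.44% in wild-type cells. Of these, 16 were called in both genotypes, all 16 in the same direction. The genotypes share no array in these comparisons but share each gene's variance estimate from the fit, so their calls are not independent. The 7 higher genes in Tet2-deficient cells became 4 without Tet2-deficient Th1 replicate 2, 4 over all probe sets and 4 with the female covariate. The 8 in wild-type cells became 4 over all probe sets, 5 without wild-type Th17 replicate 2 and 5 without wild-type Th1 replicate 2.

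Nt5e (CD73, an ectoenzyme that makes adenosine) had the largest rise of the list in Th17 cells, with a log2 fold change of 1.85 in Tet2-deficient and 2.36 in wild-type cells (adjusted p = 1.75e-05 and 2.3e-06, limma). The inhibitory receptor gene Ctla4 also rose, by 1.16 and 1.27 (adjusted p = 0.00225 and 0.00145). Genes that were lower in Th17 cells included the granzyme gene Gzmb (-4.72 in Tet2-deficient and -4.85 in wild-type cells), the enkephalin precursor gene Penk (-2.78 and -2.87) and the activation marker gene Cd83 (-1.79 and -1.79). Gzmb is also a gene of Th1 effector cells. Il2ra, the interleukin-2 receptor alpha chain used to sort regulatory T cells, had -0.12 and 0.04 and was not called. Between genotypes none of the 32 was called by limma, and the largest differences were in Tnfrsf9 (-0.60) and Socs2 (-0.55) in Th17 cells and in Prdm1 (-0.76) and Gzmb (-0.34) in Th1 cells.

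**Figure D4:**
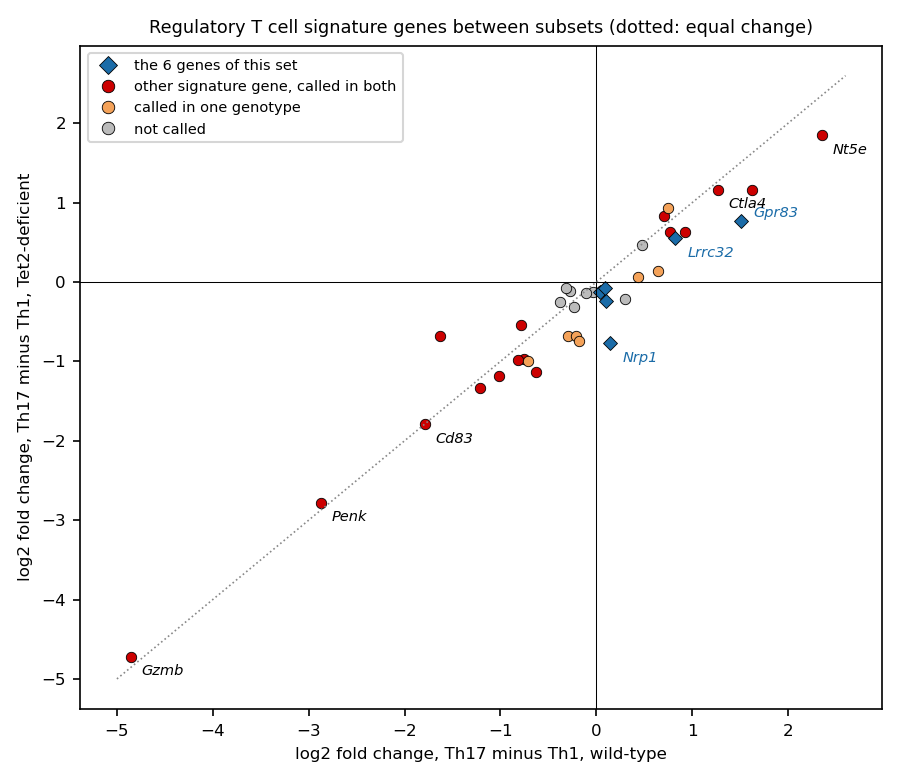
Each point is a gene's log2 fold change of Th17 against Th1 cells in Tet2-deficient (vertical axis) and wild-type cells (horizontal axis), with diamonds for the 6 genes and circles for 32 other signature genes coloured by the number of genotypes in which they were called. Gpr83 (0.77 in Tet2-deficient, 1.51 in wild-type cells) lies among the genes higher in Th17 cells and below the dotted line of equal change. Its place below that line contains the Th17 contrast it was selected on and is a description only.

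Partners and upstream regulators of Foxp3 were split as well. Of 28 measured genes, 6 were called higher and 4 lower in Th17 than in Th1 cells with Tet2 deficiency, and 8 higher and 3 lower in wild-type cells. Over all genes 10.1% were called in Tet2-deficient and 8.4% in wild-type cells. The TGF-beta effector gene Smad3 rose by 1.51 in Tet2-deficient and 1.73 in wild-type cells, and Lef1, a transcription factor gene of the Wnt pathway, by 1.28 and 1.08. Runx3, which encodes a transcription factor that acts with T-bet, had -0.99 and -0.88, and the nuclear receptor gene Nr4a3 had -1.34 and -0.84. The 6 became 2 without Tet2-deficient Th17 replicate 1, 3 without Tet2-deficient Th1 replicate 1 and 3 with the female covariate, and the 4 became 2 without Tet2-deficient Th17 replicate 2 and over all probe sets. The 8 became 3 without wild-type Th17 replicate 2, 4 over all probe sets and 5 without wild-type Th1 replicate 2.

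Lrrc32 holds latent TGF-beta, so a list of TGF-beta latency and activation genes was read, of which 14 were measured. The list includes the receptor genes Tgfbr1 and Tgfbr2. In Tet2-deficient cells 2 were called higher in Th17 than in Th1 cells, Tgfbr2 (0.87) and Tgfb3 (0.74), and 2 lower, Itgb8 (-0.98) and Itgav (-0.84). In wild-type cells 3 were called higher, Tgfbr1 (1.15), Tgfbr2 (0.64) and Tgfb3 (0.62), and the same 2 lower, Itgav (-1.05) and Itgb8 (-0.82), which together form an integrin known to release TGF-beta from its latent form. The share of all genes called was 10.1% in Tet2-deficient and 8.4% in wild-type cells. With an array of the compared groups left out the counts ranged from 1 to 2 higher and 1 to 2 lower in Tet2-deficient cells. In wild-type cells they were 1 higher and 1 lower without wild-type Th17 replicate 2, and 1 higher without wild-type Th1 replicate 1. Over all probe sets 1 was called higher and 1 lower in each genotype, and with the female covariate 1 was called lower in Tet2-deficient cells. Between genotypes none was called, with Tgfbr1 at -0.52 in Th17 cells. Among 11 neuropilin relatives and ligands none was called, and the Nrp1 ligand gene Sema4a had -0.51 (adjusted p = 0.0515) in Tet2-deficient and -0.50 (adjusted p = 0.0620) in wild-type cells between subsets.

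Genes that Foxp3 is known to repress did not share a direction either. Of 11 measured, 4 were called higher and 1 lower in Th17 than in Th1 cells in each genotype, with Il21 (1.82 in Tet2-deficient, 1.69 in wild-type cells) and the phosphodiesterase gene Pde3b (1.68 and 1.40) higher and Ifng (-4.35 and -5.69) lower. Calls over all genes made up 10.1% in Tet2-deficient and 8.4% in wild-type cells. In Tet2-deficient cells the 4 became 2 without Tet2-deficient Th17 replicate 1, Tet2-deficient Th17 replicate 2 or Tet2-deficient Th1 replicate 1, and 2 with the female covariate. In wild-type cells they became 2 without wild-type Th17 replicate 2, wild-type Th1 replicate 1 or wild-type Th1 replicate 2, and 2 over all probe sets. The 1 lower gene in Tet2-deficient cells became 4 with the low-level filter and with array weights, as many as were higher there. It became 3 with quantile normalization again and with eBayes without trend, and 2 with the fit on 4 arrays and without any one of the 4 Th1 arrays. In wild-type cells it became 2 with quantile normalization again. Between genotypes Ifng alone was called, lower in Tet2-deficient Th1 cells (-1.39, adjusted p = 0.00438), and Il2 had -0.60 in Th17 cells without passing.

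Genes whose signal followed a member most closely were ranked by Pearson r over the 8 arrays among genes above the median level, as a description of these arrays, which share their groups. Gpr83 was followed most closely by the kinase gene Riok2 (r = 0.976), the pocket protein gene Rbl2 (0.970) and the iron transporter gene Slc11a2 (0.965). Rbl2 had group means of 8.36 in Tet2-deficient and 9.13 in wild-type Th17 cells, and 7.57 in Tet2-deficient and 7.69 in wild-type Th1 cells. Lrrc32 was followed by Pepd (0.981), Zscan20 (0.977) and Cap2 (0.977), and Nrp1 by Rn7sk (0.967), Mfsd4a (0.966) and Snu13 (0.962). Foxp3 had Rad23b (0.929), Cipc (0.927) and Bcl2l12 (0.927) nearest, Ikzf2 had Dhrs9 (0.936), Lin52 (0.930) and Gng4 (0.852), and Ikzf4 had Snora7a (0.943), Tomm20l (0.940) and Ndufa8 (0.933). Among the 6 genes themselves the closest pair was Gpr83 and Lrrc32 (0.778), and Gpr83 and Foxp3 had -0.247.

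Marker genes gave the setting for these values. All 6 measured Th17 markers were called higher in Th17 cells in both genotypes, and 4 of 6 Th1 markers lower. The Th1 marker Il18r1, an interleukin-18 receptor chain gene, was called higher in Th17 cells with Tet2 deficiency (0.87, adjusted p = 0.00736, limma) and not in wild-type cells (0.27, adjusted p = 0.364). That call ended without Tet2-deficient Th17 replicate 1, without Tet2-deficient Th1 replicate 1 and over all probe sets. The 10 measured T cell identity genes had mean log2 signals from 8.30 to 11.9, all above the median gene. B cell markers (5 measured) had means from 4.07 to 6.62, and CD8 T cell and natural killer cell markers (8 measured) from 4.07 to 7.55, with Klrd1 at 1.25 between genotypes in Th17 cells, not called. Tet2 itself had a log2 signal of 8.34 and 8.39 on the Tet2-deficient Th17 arrays, against 8.51 and 8.49 on the wild-type ones. Its Th1 values were 8.12 and 7.98 with Tet2 deficiency, against 8.14 and 8.02 in wild-type cells. The Tet2 probe set may lie outside the deleted part, so it checks nothing about the deletion.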

How the data were processed

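RNA from mouse Th17 and Th1 cells was read on an Affymetrix whole-transcript array. The deposited values are log2 probe-set signals, made by the authors with GCOS, RMA and Affymetrix Expression Console, per the submitters' processing notes, with versions and options not given in the sources used here. The values were used without further scaling. Probe sets (35556) were named from the platform annotation of 2016: 21789 carried a single symbol, and 19938 genes remained after taking, for a gene with several, the one of highest average signal. Arrays have no counting depth, and their number limits the precision.

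The test was that of limma 3.58.1, run in R 4.3.3 (lmFit on 4 group means, eBayes with an intensity trend, 4 residual and 8.32 prior degrees of freedom), two-sided, with Benjamini-Hochberg adjustment over all genes of a contrast and calls under 0.05. Values after ± are SE for fold changes and SD for means. An exact permutation test of 2 arrays against 2 cannot go below p = 0.333, so none is given. Whether replicates came from separate mice is not stated beyond their titles, so p-values measure the spread between these arrays.

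The 6 members and the 13 gene lists were chosen with earlier results of these data known. Names beyond the members follow a rule: up to 4 called genes with the largest change per list, otherwise up to 2 that did not pass, and the 3 genes most like each member. Il2ra, Ctla4, H2-Ab1 and Cd74 were named after their values were seen. Of 158 list entries 10 were not analysed here. The fit of the Th17 genotype contrast was tried on simulated data with independent noise, with 200 changed genes among 19938 in each run. It found 77.9% of those with a 1.5-fold and 99.7% of those with a 2-fold change, and 6.66% of calls were false. The real contrast had 0 calls, and with fewer changed genes the adjusted threshold is stricter, so these shares may not hold there. Alternatives were a replicate block, a fit on the 4 arrays compared, a filter on low levels, all probe sets, the mean of probe sets, quantile normalization again, centring, eBayes without trend, robust eBayes, array weights, a female share covariate and leaving out each array.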

Additional observations from a re-analysis of the deposited data

Results flagged for a closer look

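Nrp1 stood out because every Tet2-deficient array lay below every wild-type array in Th17 cells and above every wild-type array in Th1 cells. Taken singly, the first held for 14.1% and the second for 19.6% of all genes. The share of genes with both together was not counted, so how unusual the joint pattern is cannot be said. In Th1 cells the nearest arrays were Tet2-deficient replicate 2 (7.084) and wild-type replicate 1 (7.067). The Th17 effect minus the Th1 effect was -0.91 on the log2 scale (95% interval -1.64 to -0.17), and this difference did not pass the test over all genes (adjusted p = 0.999, unadjusted p = 0.0197, limma). It was -0.39 without Tet2-deficient Th1 replicate 1 and -1.43 without Tet2-deficient Th1 replicate 2.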

How the results depend on the processing

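Of the 5 genes other than Gpr83, 0 were called between genotypes under each alternative that included them. The low-level filter removed Foxp3 and Ikzf2, so its counts leave these genes out. Gpr83 is left out of this count because it was selected on the Th17 contrast. Between subsets in Tet2-deficient cells the count of 1 became 2 with centred arrays and with the replicate block, and 3 with the low-level filter and with array weights. It ranged from 1 to 2 with single arrays left out. In wild-type cells the count of 2 became 1 over all probe sets and ranged from 1 to 2 with single arrays left out. The replicate block added Nrp1 in Tet2-deficient cells (-0.77, adjusted p = 0.0401) and ended no call. Deviations of same-numbered arrays correlated between -0.186 and 0.061 over 6 pairs of groups, so no pairing by number was seen. Whether same-numbered arrays shared mice or a batch is not stated, and these correlations cannot decide it. Signs turned for small, uncalled values. In Th17 cells between genotypes these were Ikzf2 with the female covariate (-0.0057), and with single arrays left out Foxp3 (-0.15 to 0.11) and Ikzf2 (-0.061 to 0.082). In Th1 cells this was Lrrc32 (-0.099 to 0.57). For the mean of both effects these were Foxp3 (-0.0034 to 0.13), Ikzf4 (-0.13 to 0.022), Nrp1 (-0.14 to 0.38) and Lrrc32 (-0.061 to 0.27). For the difference of effects it was Lrrc32 (-0.60 to 0.075), and between subsets in wild-type cells Foxp3 (-0.092 to 0.17). Over all genes, 2015 calls between subsets in Tet2-deficient cells became 1001 over all probe sets, 726 with the female covariate and 801 to 1204 without an array of those groups. In wild-type cells 1675 became 599 over all probe sets, 1101 with 4 arrays, 663 without wild-type Th17 replicate 2 and 1029 without wild-type Th1 replicate 1. Between genotypes the counts were 0 to 2 in Th1 cells, 0 to 4 in Th17 cells, 0 to 5 for the mean and 0 to 4 for the difference. The cause of these changes was not tested beyond fewer arrays or more features.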
